A study of Arabidopsis thaliana with 48 samples.

Results

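The genes described here are 50 Arabidopsis genes, of 28496 gene identifiers counted. Their mean level rose past a set limit when CNA was induced and changed by less than a lower limit, or fell, when CNA-SDdelta was induced. CNA (CORONA, listed as ATHB-15) and PHB (PHABULOSA) are class III homeodomain-leucine zipper (HD-ZIPIII) transcription factors. Each line carried an estradiol-inducible factor, and SDdelta is read here as deletion of the START domain, since the labels do not spell it out. The chimeric CNA constructs are named as labelled, with the suffixes SmHOX32, PpHOX32, KnC3HDZ and KnC3HDZ_8m. Seedlings of the T2 generation were sprayed at 9 days with 50 uM estradiol in DMSO and Silwet L-77, or with DMSO and Silwet L-77 alone (mock), and whole seedlings were taken at 10 days, 24 h after spraying. The promoter of each construct and the number of independent transformants are not given in the sources used here. There were 8 lines, each induced and mock, with 3 libraries per group. The labels call the replicates biological without naming what was separate, so p-values measure the spread between these libraries.

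Members were selected on measured values, as the log2 ratio of mean CPM (counts over the library total, times 1000000) in induced over mock libraries after adding 1. A gene had to reach a change of 0.8 in CNA, PHB, PHB-SDdelta and CNA-KnC3HDZ_8m, to stay under 0.3 in CNA-SDdelta, and to reach 3 CPM in CNA induced libraries. The 5 genes left out by name were the LITTLE ZIPPER genes ZPR1, ZPR3 and ZPR4 and the 2 induced factors themselves, ATHB-15 and PHB. ZPR1, ZPR3 and ZPR4 met every limit, so 53 genes had the pattern before those 3 were set aside. The 4 rises and the CPM minimum were met by 487 genes, of which 352 also rose by 0.8 or more in CNA-SDdelta and 82 lay between 0.3 and 0.8 there. Values in those 5 lines are therefore given as a description, without a test. Inductions of CNA-KnC3HDZ, CNA-SmHOX32 and CNA-PpHOX32 were not used in the selection and were tested.

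HD-ZIPIII proteins bind DNA as dimers through a homeodomain and leucine zipper. They carry a START domain, a fold that in animals binds lipids, and they specify upper leaf identity, shoot meristem and vascular pattern in the plant. Their transcripts are cut by miR165 and miR166, and LITTLE ZIPPER proteins pair with them and block DNA binding.

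ATHB-15 counts were higher in induced than in mock libraries in all CNA-based lines, without overlap, and reads of the resident gene and of a transgene cannot be told apart. They were 55.6, 47.0 and 73.9 CPM in CNA induced libraries against 19.2, 13.6 and 14.8 CPM in mock libraries. In CNA-SDdelta they were 34.9, 17.4 and 18.3 CPM induced against 10.78, 8.46 and 16.6 CPM mock. Every CNA-SDdelta induced library thus lay below every CNA induced library, and the part of that lower level in the selection of the members was not tested. ZPR1, a LITTLE ZIPPER gene outside the members, was at 505, 232 and 655 CPM in CNA induced libraries and at 20.6, 21.8 and 22.1 CPM in CNA-SDdelta induced libraries. Library totals ran from 1808765 to 37222617 counts (median 5944946.5), so 3 counts, taken as the floor, equal 0.08 to 1.5 CPM. The common biological coefficient of variation was 60.9% over all libraries, and 31.2% in CNA-KnC3HDZ, 74.0% in CNA-SmHOX32 and 65.9% in CNA-PpHOX32 when each was fitted alone.

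The selection set limits on ratios of group means and made no test of the CNA-SDdelta induction against that of CNA, so a need for the START domain is not shown by it for any single member. The members are called here by their pattern, genes higher in 4 lines and not in CNA-SDdelta.

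The pattern was made from both sides of the CNA and CNA-SDdelta pair. CNA-SDdelta induced means lay below CNA induced means for 49 of 50 members, with a median log2 gap of −1.12 (CPM plus 1). CNA-SDdelta mock means lay above CNA mock means for 39 of 50, with a median gap of 0.27. In 7 members the mock gap was larger than the induced gap. All 3 CNA-SDdelta induced libraries were below all 3 CNA induced libraries in 21 members, and in 5.88% of the 18909 genes with enough counts for the tests given later. The induced libraries lay above all mock libraries of their line for 29 members in CNA, 29 in PHB, 41 in PHB-SDdelta, 43 in CNA-KnC3HDZ_8m and 0 in CNA-SDdelta. The same held for 10.3%, 10.9%, 16.4%, 13.2% and 10.8% of those genes, in that order. These values made the selection, so nothing is read from the contrast between members and other genes.

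**Figure D1:**
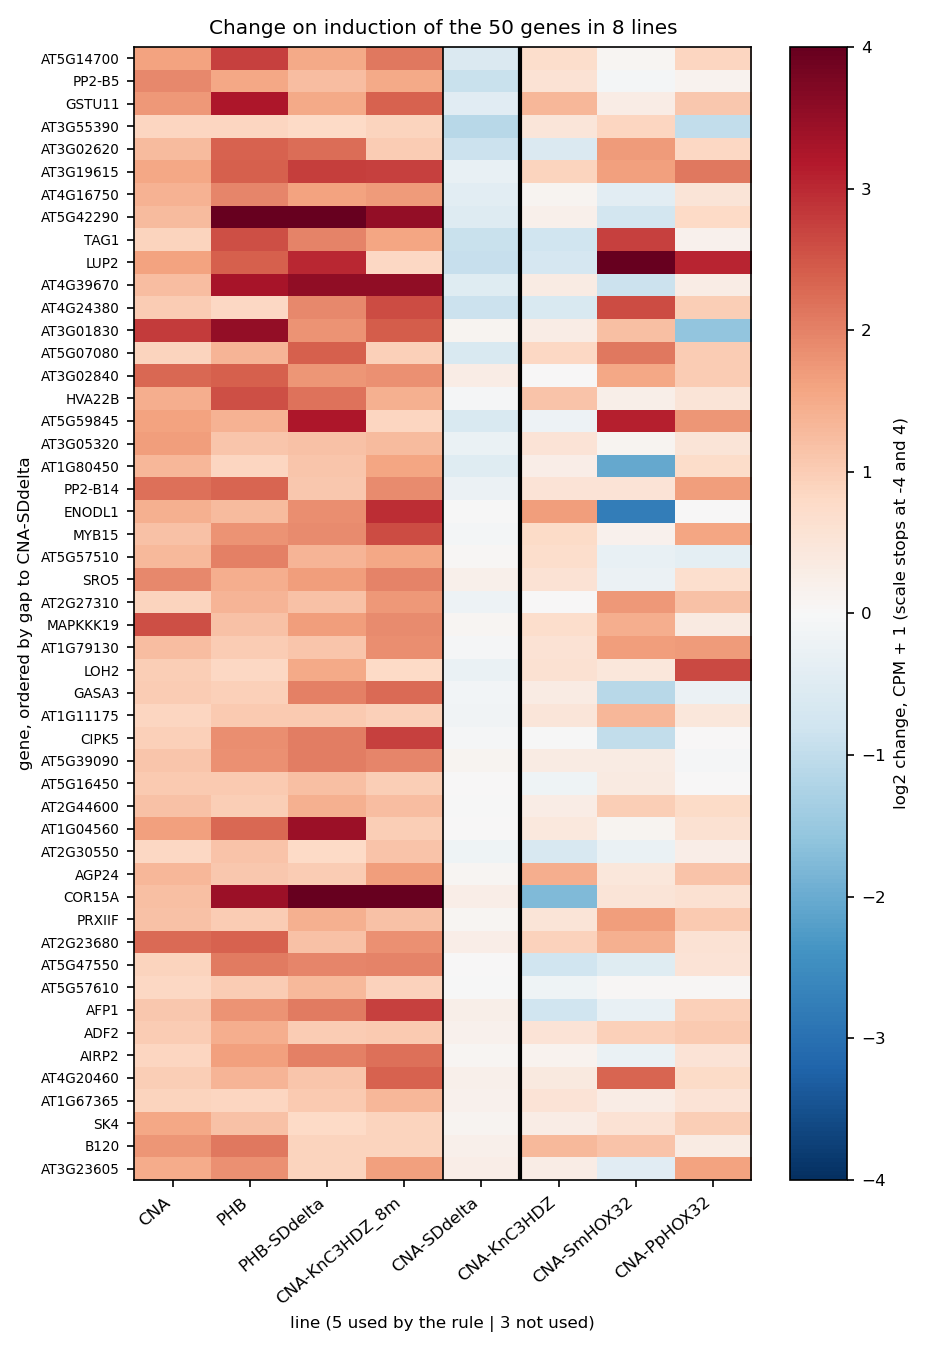
Change on induction (log2 of mean CPM plus 1, induced over mock, colour) of the 50 genes (rows, ordered by the gap between their lowest of 4 selected rises and the CNA-SDdelta change) in 8 lines (columns, the 5 used in the selection left of the thick line). The first 5 columns follow from the selection. To the right of the line the genes differ, with 8 at 0.8 or more in CNA-KnC3HDZ and 20 each in CNA-SmHOX32 and CNA-PpHOX32. By edgeR's log2 change, another scale, 18, 20 and 22 of them reached 0.8, beside 2439, 4766 and 3670 of 18909 genes tested.

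The members' standing level differed between mock groups. Set against each gene's mean over the 16 groups, the median member lay at −0.80 in PHB mock, −0.91 in PHB-SDdelta mock and −0.90 in CNA-KnC3HDZ_8m mock (log2 level). It lay at −0.49 in CNA mock, −0.40 in CNA-KnC3HDZ mock, −0.12 in CNA-SDdelta mock, 0.04 in CNA-SmHOX32 mock and 0.07 in CNA-PpHOX32 mock. The lines with the lowest mock levels were thus lines in which a rise was required. Within CNA-SmHOX32 mock the 3 libraries gave −1.12, −0.14 and −0.05. The lowest of these, replicate 2, held 3175734 counts against 8505673 and 6088802 in the others. Of the 50 members, 23 were at or under 3 counts in that library, against 9 and 10 in the others.

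**Figure D2:**
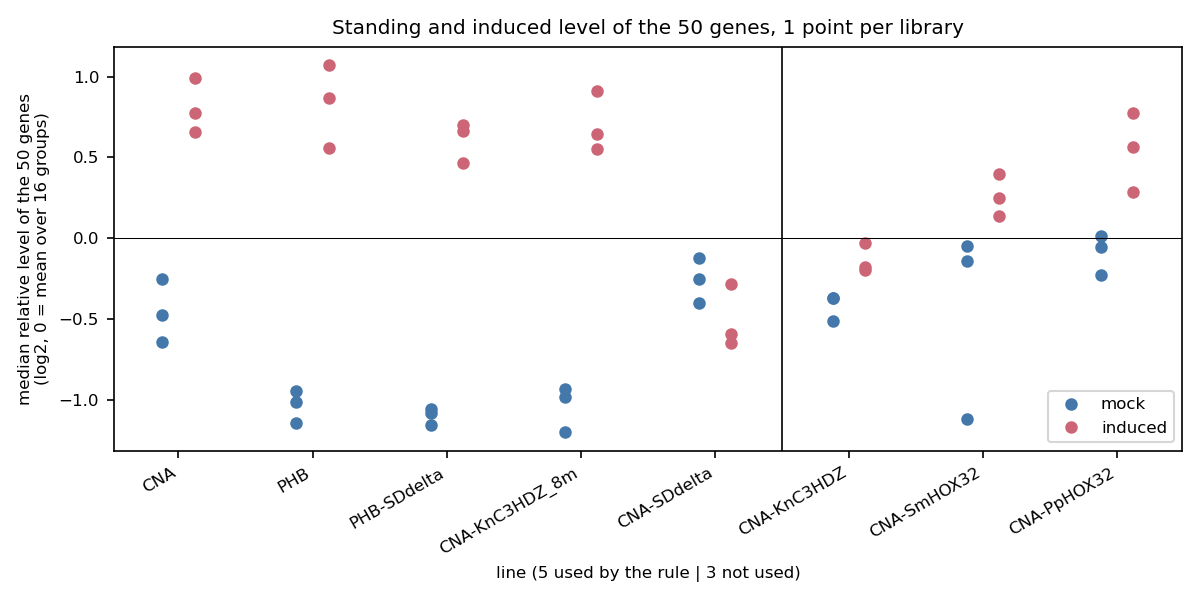
Median level of the 50 genes in each library (points, 3 per group), as log2 CPM plus 1 relative to each gene's mean over the 16 groups, in mock (blue) and induced (red) libraries of 8 lines. Induced libraries of the 4 lines used for the rises lie between 0.47 and 1.07, CNA-SDdelta induced libraries lie at or below −0.28, and 1 CNA-SmHOX32 mock library lies at −1.12.

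Among the 10 members with the largest gap between their lowest selected rise and the CNA-SDdelta change, most were low in level. AT5G14700, an NAD(P)-binding Rossmann-fold protein, had the widest gap. It was at 12.8, 3.55 and 2.52 CPM in CNA induced libraries, at 1.01, 2.52 and 0.38 CPM in CNA mock libraries, and at 0.605, 0 and 1.64 CPM in CNA-SDdelta induced libraries. PP2-B5, an F-box gene of the phloem protein 2 family, came next. It was at 1.65, 18.9 and 0.21 CPM in CNA induced libraries, so 1 library held most of its count, and at 0 in all 3 CNA-SDdelta induced libraries. GSTU11, a tau-class glutathione transferase, was at 10.07, 7.502 and 0 CPM in CNA induced libraries and at 1.058, 0.205 and 0 CPM in CNA-SDdelta induced libraries. These 3 genes overlapped between CNA induced and mock libraries. Of the 50 members, 24 were under 10 CPM in CNA induced libraries and 5 reached 100 CPM. In 6 members, 1 CNA induced library held over 2/3 of the sum of the 3 libraries.

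AT4G16750, a DREB-type transcription factor gene, was steadier among the 10. It was at 30.1, 27.2 and 26.2 CPM in CNA induced libraries and at 13.9, 4.28 and 10.2 CPM in CNA mock libraries. In CNA-SDdelta it was at 9.98, 6.36 and 4.81 CPM induced against 11.9, 12.5 and 5.97 CPM mock, so these groups overlapped. AT5G42290, annotated as a transcription activator-like protein, was at 29.8, 37.5 and 18.7 CPM in CNA induced libraries and at 12.7, 12.3 and 7.21 CPM in CNA mock libraries. In CNA-SDdelta it stood higher in mock, at 24.1, 25.2 and 19.0 CPM, than in induced libraries, at 21.9, 13.9 and 9.72 CPM, with overlap. The others of the 10 were AT3G55390 (an uncharacterised UPF0497 protein), AT3G02620 (an acyl-carrier-protein desaturase), AT3G19615 (annotated as a xylosidase), TAG1 and LUP2.

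Membership depended on small differences near the limits. Just inside the CNA limit were AT2G30550 (0.82), AT5G57610 (0.83) and AT3G55390 (0.85), and just outside RAE1 (0.79), CER1 (0.72) and AT2G36770 (0.69). At the PHB limit LOH2 (0.83), AT4G24380 (0.84) and AT1G80450 (0.86) were inside, and CHX18 (0.79), PEPR1 (0.78) and BRL3 (0.78) outside. At the PHB-SDdelta limit AT3G55390 (0.80), AT2G30550 (0.80) and SK4 (0.81) were inside, and AT1G52565 (0.80 after rounding), EMB3127 (0.77) and CPUORF47 (0.76) outside. At the CNA-KnC3HDZ_8m limit LOH2 (0.81), LUP2 (0.83) and AT5G59845 (0.87) were inside, and AT2G47780 (0.78), U2.7 (0.78) and AT1G63720 (0.77) outside. AT3G02840 (0.29), AT2G23680 (0.28) and AT3G23605 (0.26) were inside the CNA-SDdelta limit, and AT3G62990 (0.30), RAN-1 (0.30) and AT3G19660 (0.32) outside it. At the level limit SRO5 (3.13 CPM), TAG1 (3.99 CPM) and AT4G20460 (4.09 CPM) were inside, and AT5G60800 (2.89 CPM), AT4G15975 (2.74 CPM) and ABCG40 (2.48 CPM) outside. With any 1 of the 30 libraries of these lines left out, the rule gave 40 to 67 genes, and 7 of the 50 members were kept in every such version: PP2-B14, PRXIIF, AT3G19615, AT4G16750, AT4G39670, AT5G16450 and AT5G42290.

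In the lines outside the selection, the members' median change was above 0 and few members passed the test. All 50 passed the filter on low counts. Inductions were tested with edgeR's quasi-likelihood test and called at an adjusted p under 0.05 (Benjamini-Hochberg over 18909 genes). In CNA-KnC3HDZ, AGP24 rose and COR15A fell, so 1 member was called higher and 1 lower, where 1.19% of all 18909 genes were called higher and 2.11% lower. The median log2 change over members was 0.61, beside 0.01 over all genes, and 38 of 50 were above 0, beside 50.8% of all genes. In CNA-SmHOX32, 7 members were called higher and 1 lower, where 4.74% of all genes were higher and 5.38% lower, and the median over members was 0.37 beside 0.08 over all genes. In CNA-PpHOX32, 6 members were called higher and 0 lower, where 1.56% of all genes were higher and 3.92% lower, and the median was 0.73 beside −0.02. Above 0 were 33 members in CNA-SmHOX32 and 41 in CNA-PpHOX32, beside 53.0% and 48.5% of all genes. At an unadjusted p under 0.05, 12 members were higher and 0 lower in CNA-PpHOX32, beside 1416 and 2054 of all 18909 genes. These counts were 5 and 3 in CNA-KnC3HDZ, beside 833 and 958, and 12 and 3 in CNA-SmHOX32, beside 2509 and 2198. DESeq2 called 8 members higher and 0 lower in CNA-PpHOX32. These counts moved with the libraries used. In fits of a line's own 6 libraries, 6 members were called in CNA-KnC3HDZ, 3 in CNA-SmHOX32 and 2 in CNA-PpHOX32, higher and lower together. The CNA-PpHOX32 count was 3 without mock replicate 2 and 2 without mock replicate 3, and the CNA-KnC3HDZ count was 1 without induced replicate 2, induced replicate 3 or mock replicate 1. Shares of all genes called by DESeq2 and in these other fits are not given here. Whether members or genes in general moved is thus not read from these counts. The 352 genes that had also risen in CNA-SDdelta had medians of 0.16, 0.57 and 0.81 in CNA-KnC3HDZ, CNA-SmHOX32 and CNA-PpHOX32. Of these, 31, 83 and 79 were called higher and 4, 13 and 0 lower.

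**Figure D3:**
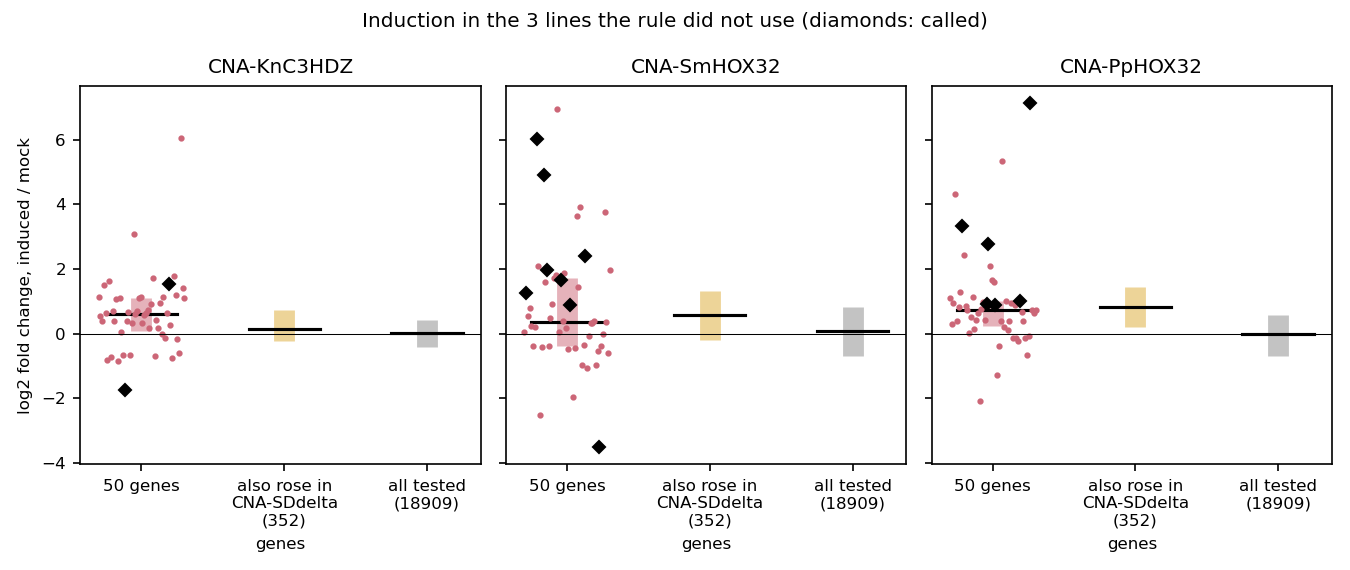
Log2 fold change on induction (edgeR) in the 3 lines outside the selection, for the 50 genes (points, diamonds where called at an adjusted p under 0.05), with the median (line) and the middle 50% (box) for them, for 352 genes that also rose in CNA-SDdelta and for all 18909 genes tested. The members' medians are 0.61, 0.37 and 0.73, and the points spread over both sides of 0 in each line.

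By the selection's own measure, 8 members reached a change of 0.8 in CNA-KnC3HDZ, 20 in CNA-SmHOX32 and 20 in CNA-PpHOX32. Of the 50, 19 did so in none of the 3 lines, 16 in 1, 13 in 2, and AT3G19615 and the acyltransferase AT5G07080 in all 3. The share of all genes by that measure is not given here. By edgeR's log2 change, 18, 20 and 22 members reached 0.8 in these lines, in the same order. Of all 18909 genes tested, 2439, 4766 and 3670 did so by edgeR.

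Among lipid and triterpene genes, LUP2 rose in CNA-SmHOX32 and CNA-PpHOX32. It encodes a lupeol synthase, which cyclises oxidosqualene to triterpenes. In CNA-SmHOX32 it was at 76.4, 89.9 and 115 CPM induced against 0, 0 and 4.04 CPM mock. In CNA-PpHOX32 it was at 33.5, 28.9 and 20.9 CPM induced against 0.853, 4.04 and 3.60 CPM mock. In CNA-KnC3HDZ it was at 3.44, 5.15 and 0.376 CPM induced against 7.299, 5.70 and 2.54 CPM mock. Groups did not overlap in the first pair of lines and overlapped in CNA-KnC3HDZ. The log2 fold changes were 6.03 ± 0.91 (SE, adjusted p = 1.99e-06), 3.31 ± 0.79 (adjusted p = 0.00445) and −0.72 ± 0.75 (adjusted p = 1.0). LUP2 also differed between inductions, by 6.75 ± 1.16 for CNA-SmHOX32 minus CNA-KnC3HDZ (adjusted p = 0.000384) and by 4.04 ± 1.08 for CNA-PpHOX32 minus CNA-KnC3HDZ (adjusted p = 0.0325). In the lines of the selection it was at 12.2, 11.4 and 21.8 CPM in CNA induced libraries and at 3.02, 0 and 6.86 CPM in CNA-SDdelta induced libraries. CNA-SDdelta mock libraries held 6.70, 7.35 and 7.74 CPM.

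The 300 bases before the LUP2 start are shown because LUP2 had the largest called rise with groups apart in these 3 lines and its window holds AATNATT, the core of the palindrome that HD-ZIP proteins bind, 2 times (capitals). Among other members called in these lines, the windows of PRXIIF, ADF2, AGP24, COR15A, AT2G27310 and AT5G07080 hold it 0 times. Those of TAG1, LOH2 and AT5G59845 hold it 1 time each, and a link between the motif and induction was not tested. The LUP2 bases lie at chr1:29696094-29696393 on the plus strand (RefSeq, TAIR10.1), printed 5′ to 3′ toward the gene.
LUP2: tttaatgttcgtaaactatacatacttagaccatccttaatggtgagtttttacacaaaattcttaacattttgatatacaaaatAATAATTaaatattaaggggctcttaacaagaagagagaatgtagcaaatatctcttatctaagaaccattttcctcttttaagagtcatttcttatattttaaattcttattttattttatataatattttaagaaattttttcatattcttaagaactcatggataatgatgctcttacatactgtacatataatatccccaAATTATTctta

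TAG1 encodes the diacylglycerol acyltransferase of the last step of triacylglycerol synthesis. In CNA-SmHOX32 it was at 0.948, 3.12 and 17.8 CPM induced against 0.56, 0 and 0 CPM mock, apart but with 1 library well above the others. It was called, at a log2 change of 4.90 ± 1.26 (adjusted p = 0.00608), and without CNA-SmHOX32 induced replicate 3 it was not (log2 change 3.06, adjusted p = 0.123). Its mock level in that line was also called lower than in CNA-KnC3HDZ mock libraries, which held 9.64, 5.96 and 8.97 CPM. LOH2, a ceramide synthase, was at 23.1, 40.8 and 25.9 CPM in CNA-PpHOX32 induced libraries against 9.98, 2.65 and 0 CPM in mock libraries. It was called there, at 2.77 ± 0.70 (adjusted p = 0.00771). Over the 6 lipid and triterpene members, 2 were called higher in CNA-SmHOX32, 2 in CNA-PpHOX32 and 0 in CNA-KnC3HDZ. Of all genes tested, 4.74%, 1.56% and 1.19% were called higher in these lines, in the same order. CNA-SDdelta mock means lay above CNA mock means in all 6 lipid and triterpene members, and in 39 of all 50 members.

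Among cell surface and cytoskeleton genes, ADF2 had the tightest values. It encodes an actin depolymerising factor, which severs actin filaments. In CNA-SmHOX32 it was at 518, 571 and 452 CPM induced against 281, 284 and 265 CPM mock. In CNA-PpHOX32 it was at 411, 552 and 581 CPM induced against 268, 243 and 320 CPM mock. Both rises were 0.89 ± 0.19 on the log2 scale (adjusted p = 0.000503 and 0.000679), with no overlap. In CNA-KnC3HDZ it was at 244, 284 and 306 CPM induced against 177, 206 and 172 CPM mock, apart, at 0.59 ± 0.18, and did not pass (adjusted p = 0.0644). In CNA-SDdelta it was at 287, 261 and 229 CPM induced against 192, 298 and 228 CPM mock, with overlap.

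AGP24 encodes an arabinogalactan protein, a glycoprotein of the cell surface. In CNA-KnC3HDZ it was at 111, 86.5 and 147 CPM induced against 19.97, 46.8 and 52.5 CPM mock. The groups were apart, and it rose by 1.53 ± 0.32 (adjusted p = 0.000995). In CNA-PpHOX32 it was at 61.0, 74.98 and 110 CPM induced against 40.4, 40.2 and 40.8 CPM mock, a rise of 1.02 ± 0.32 (adjusted p = 0.0418). In CNA-SmHOX32 it was at 97.6, 97.9 and 92.4 CPM induced against 93.6, 68.7 and 59.2 CPM mock, which overlapped and did not pass (log2 change 0.38 ± 0.31, adjusted p = 0.486).

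ENODL1, an early nodulin-like protein of the phytocyanin family, had log2 changes of opposite sign in CNA-KnC3HDZ and CNA-SmHOX32. In CNA-KnC3HDZ it was at 41.4, 29.99 and 36.6 CPM induced against 6.06, 14.1 and 11.2 CPM mock, apart, with a log2 change of 1.78 ± 0.74 that did not pass (adjusted p = 0.298). In CNA-SmHOX32 it was at 0.271, 4.16 and 0 CPM induced against 22.4, 23.5 and 5.87 CPM mock, and fell by 3.52 ± 0.86 (adjusted p = 0.00394). The difference between these inductions was −5.30 ± 1.14 (adjusted p = 0.00715). In CNA-PpHOX32 it was at 3.66, 16.3 and 21.9 CPM induced against 27.0, 17.2 and 0 CPM mock, with overlap. AT5G59845, a gibberellin-regulated peptide gene, was at 6.05, 0 and 0.848 CPM in CNA-PpHOX32 induced libraries and at 0 in all 3 mock libraries. It was called (adjusted p = 0.0344) and was at least 5.87-fold higher than the mean floor of 3 counts per mock library, but 1 induced library was at 0 too and 1 held most of the count.

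The ENODL1 window is shown because its inductions differed in sign between lines. It holds AATNATT 2 times (capitals) and lies at chr5:21871392-21871691 on the minus strand.
ENODL1: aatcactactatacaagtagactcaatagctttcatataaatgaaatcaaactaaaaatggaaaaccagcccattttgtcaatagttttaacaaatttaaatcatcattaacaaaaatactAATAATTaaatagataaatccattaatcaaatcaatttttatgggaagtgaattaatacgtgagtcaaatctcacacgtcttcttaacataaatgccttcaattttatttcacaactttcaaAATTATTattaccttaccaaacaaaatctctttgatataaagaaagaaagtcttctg

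**Figure D4:**
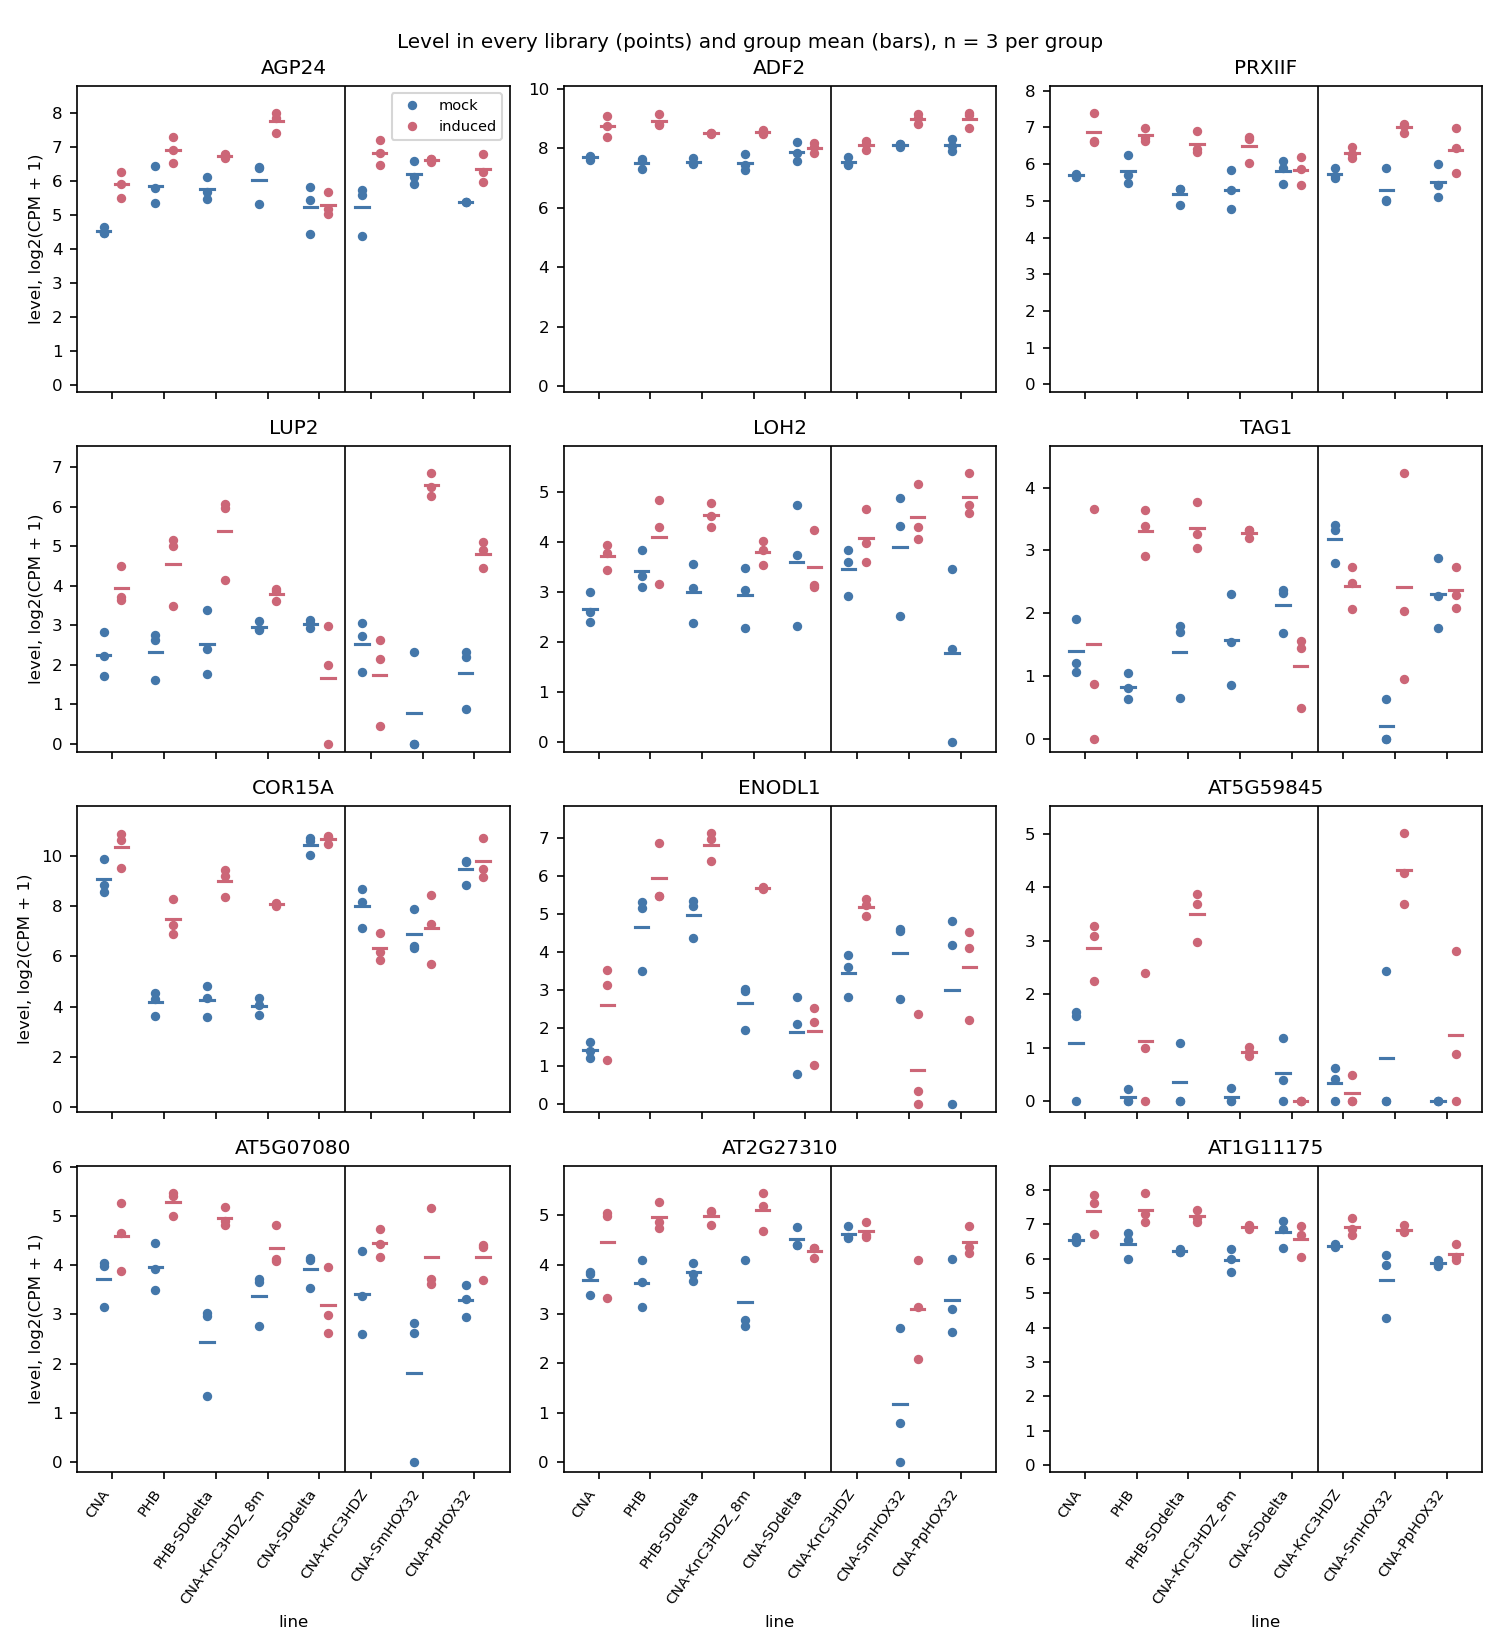
Level of 12 members, those called on induction in at least 1 of the 3 lines outside the selection, in every library (points, log2 CPM plus 1) with group means (bars, n = 3), mock in blue and induced in red, for 8 lines (the 5 used in the selection left of the vertical line). LUP2 reaches 115 CPM in CNA-SmHOX32 induced libraries and COR15A lies between 1058 and 1754 CPM in all CNA-SDdelta libraries, mock and induced.

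Among other enzyme genes, PRXIIF and AT5G07080 were called. PRXIIF encodes a mitochondrial peroxiredoxin, which reduces peroxides. In CNA-SmHOX32 it was at 131, 114 and 136 CPM induced against 30.6, 31.3 and 58.7 CPM mock, a rise of 1.66 ± 0.30 (adjusted p = 6.69e-05). In CNA-PpHOX32 it was at 125, 86.0 and 53.1 CPM induced against 63.3, 33.4 and 42.4 CPM mock, which overlapped, and passed narrowly at 0.93 ± 0.29 (adjusted p = 0.0487). In CNA-KnC3HDZ it was at 70.8, 77.1 and 87.4 CPM induced against 49.9, 47.97 and 58.6 CPM mock, apart, at 0.59 ± 0.29 (adjusted p = 0.525). In CNA-SDdelta it was at 41.9, 57.6 and 72.0 CPM induced against 43.2, 66.8 and 58.4 CPM mock. AT5G07080, a BAHD-type acyltransferase, rose in CNA-SmHOX32, from 5.18, 6.12 and 0 CPM in mock to 34.7, 11.3 and 12.2 CPM in induced libraries (2.40 ± 0.64, adjusted p = 0.00924). Over the 11 members grouped as other enzymes and inhibitors, 2 were called higher in CNA-SmHOX32, 1 in CNA-PpHOX32 and 0 in CNA-KnC3HDZ. The share of all genes called higher was 4.74%, 1.56% and 1.19%, in that order.

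The 5 ubiquitin system members, which include the F-box genes PP2-B14, PP2-B5 and AT2G27310 and the SKP1-like SK4, had log2 changes above 0 in all 5 genes in CNA-KnC3HDZ and in CNA-PpHOX32, with 0 called in either, and in 3 of 5 in CNA-SmHOX32. Over all genes tested, 50.8%, 48.5% and 53.0% were above 0 and 1.19%, 1.56% and 4.74% were called higher in these lines, in the same order. AT2G27310 was called in CNA-SmHOX32, at 16.1, 7.79 and 3.26 CPM induced against 5.598, 0 and 0.734 CPM mock (1.95 ± 0.59, adjusted p = 0.0238), although the groups overlapped. Its mock level in that line was called lower than in CNA-KnC3HDZ mock libraries (26.4, 22.7 and 22.2 CPM). AT1G11175, a non-coding RNA gene, rose in CNA-SmHOX32 from 67.7, 18.4 and 55.4 CPM to 125, 108 and 110 CPM (1.26 ± 0.29, adjusted p = 0.00152). The 8 regulators and signalling genes, MYB15, MAPKKK19, the receptor-like kinase B120 and AT4G16750 among them, gave 0 calls in the 3 lines. Their median log2 changes were 0.53, 0.81 and 0.55 in CNA-KnC3HDZ, CNA-SmHOX32 and CNA-PpHOX32. Of all genes tested, 1.19%, 4.74% and 1.56% were called higher and 2.11%, 5.38% and 3.92% lower, in the same order. With so few genes, 0 calls are not read as a result about this role. These role groups were formed from annotation after the values were known and carry no test.

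Genes linked to cold, dehydration and abscisic acid formed a group of 8, in which COR15A had widely different levels between mock groups. COR15A encodes a chloroplast protein that protects membranes during freezing. It was at 458, 930 and 379 CPM in CNA mock libraries and at 1058, 1538 and 1698 CPM in CNA-SDdelta mock libraries. In PHB, PHB-SDdelta and CNA-KnC3HDZ_8m mock libraries it lay between 11.1 and 27.1 CPM. On induction it reached 1899, 1568 and 727 CPM in CNA, 309, 152 and 118 CPM in PHB, and 1437, 1715 and 1754 CPM in CNA-SDdelta. Its change in CNA-SDdelta was 0.25 on the selection's scale, from a mock level above every CNA mock library. It was the 1 member whose CNA-SDdelta induced mean exceeded that of CNA. In CNA-KnC3HDZ the gene fell, from 408, 138 and 287 CPM to 120, 57.0 and 71.0 CPM, with no overlap (log2 change −1.76 ± 0.44, adjusted p = 0.0083). In CNA-PpHOX32 it was at 1688, 718 and 576 CPM induced against 454, 873 and 889 CPM mock, with overlap. The inductions of CNA-PpHOX32 and CNA-KnC3HDZ differed by 2.18 ± 0.60 (adjusted p = 0.0427).

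Over these 8 genes, CNA mock means lay above PHB mock means in 7 and CNA-SDdelta mock means above CNA mock means in 7. For all 50 members the counts were 35 and 39, and these mock levels entered the selection. None of the 8 was called higher in the 3 lines, and their median log2 changes were 0.63, −0.15 and 0.58 in CNA-KnC3HDZ, CNA-SmHOX32 and CNA-PpHOX32. Of all genes tested, 1.19%, 4.74% and 1.56% were called higher there. AFP1, which encodes a binding partner of the abscisic acid regulator ABI5, was at 25.02, 17.2 and 16.5 CPM in CNA-KnC3HDZ induced libraries against 36.4, 31.1 and 35.4 CPM in mock libraries. AFP1 went the other way in CNA-PpHOX32, at 48.5, 74.0 and 42.2 CPM induced against 34.7, 35.0 and 22.2 CPM mock. Groups were apart in both lines, neither change was called, and the CNA-SmHOX32 groups overlapped. CIPK5, a kinase that works with calcium sensors, was at 28.0, 30.7 and 21.7 CPM in CNA-SmHOX32 induced libraries against 56.0, 55.1 and 57.2 CPM in mock libraries, and did not pass (−1.06 ± 0.38, adjusted p = 0.0629). Its groups overlapped in CNA-KnC3HDZ and CNA-PpHOX32. The group, itself formed from annotation, holds 4 of the 5 members whose 300-base window contains a G-box, CACGTG. This is a known site of bZIP factors in abscisic acid responses, and 7.09% of windows in the genome contain it.

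The windows of COR15A, at chr2:17712331-17712630 on the minus strand, and of HVA22B, homologue of an abscisic acid-induced barley gene, at chr5:25089791-25090090 on the plus strand, are shown for their G-boxes (capitals). HVA22B also holds 1 AATNATT, in capitals nearer its 5′ end.
COR15A: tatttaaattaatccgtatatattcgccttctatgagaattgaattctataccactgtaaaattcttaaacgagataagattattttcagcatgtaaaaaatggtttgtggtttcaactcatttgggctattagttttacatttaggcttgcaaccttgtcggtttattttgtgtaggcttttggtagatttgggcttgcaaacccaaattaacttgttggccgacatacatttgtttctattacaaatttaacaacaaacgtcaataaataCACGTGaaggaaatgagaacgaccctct
HVA22B: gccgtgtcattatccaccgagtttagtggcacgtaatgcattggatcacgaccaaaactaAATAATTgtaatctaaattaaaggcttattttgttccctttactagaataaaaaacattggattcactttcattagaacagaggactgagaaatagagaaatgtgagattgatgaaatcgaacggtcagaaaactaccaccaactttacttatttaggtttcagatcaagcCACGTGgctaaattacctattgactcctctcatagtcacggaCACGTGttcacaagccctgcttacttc

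Across members, AATNATT was present in 45.8% of the 48 windows of protein-coding members, against 35.4% of 27443 such windows in the genome. The longer TAATNATTA, which contains it, was in 5 of the 48 windows against 4.41% of genome windows. CACGTG was also in 5 of the 48, against 7.09%. These motifs read the same on both strands where N pairs with its complement, so each was searched on 1 strand, and no test was made. The members lay on all 5 chromosomes (10, 7, 11, 6 and 16 genes on chromosomes 1 to 5), and HVA22B and SRO5 lay within 20 kb of each other. Of the 50, 14 overlap another annotated gene, and AT1G67365 is a long non-coding RNA antisense to AT1G67370. Whether counting used strand is not given in the sources used here, so their reads may include the partner's. COR15A and LUP2 have close copies beside them (COR15B and LUP1), and how shared reads were counted is likewise not given.

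Mock libraries of the 3 lines also differed. CNA-SmHOX32 mock libraries were higher than CNA-KnC3HDZ mock libraries in 5 members (ADF2, AT4G16750, CIPK5, the cystatin-like AT5G47550 and HVA22B) and lower in 2 (TAG1 and AT2G27310), where 5.24% and 6.09% of all genes were called. AT4G16750 was at 33.3, 76.2 and 39.1 CPM against 6.33, 9.81 and 14.1 CPM, apart, a log2 difference of 2.29 ± 0.47 (adjusted p = 0.000435). HVA22B was at 0, 3.40 and 3.67 CPM against 0 in all 3 libraries. With 1 library left out, AT5G47550 was called in 0 of 6 fits, HVA22B in 1 and ADF2 in 2. AT4G16750, CIPK5, TAG1 and AT2G27310 were called in 6 of 6. CNA-PpHOX32 mock libraries were higher than CNA-KnC3HDZ mock libraries in AT4G16750 and CIPK5 and lower in 0, where 2.1% and 0.952% of all genes were called. These calls held in 3 of 6 fits for AT4G16750 and 1 of 6 for CIPK5 with 1 library left out. At an unadjusted p under 0.05, 12 members were higher and 3 lower in that comparison, beside 1370 and 1340 of all 18909 genes.

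Of the differences between inductions, 1 member was higher (LUP2) and 1 lower (ENODL1) for CNA-SmHOX32 minus CNA-KnC3HDZ, where 0.323% and 0.508% of all genes were called. For CNA-PpHOX32 minus CNA-KnC3HDZ, LUP2 and COR15A were higher and 0 lower, where 0.476% and 1.11% were called. For CNA-PpHOX32 minus CNA-SmHOX32, 0 members were called by edgeR, where 1.03% of all genes were higher and 1.26% lower. At an unadjusted p under 0.05, 6 members were higher and 4 lower there, beside 1280 and 1806 of all 18909 genes. DESeq2 called 1 member higher and 1 lower in that difference, and its share of all genes is not given here.

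The LITTLE ZIPPER genes ZPR1, ZPR3 and ZPR4 had the members' pattern and were left out by name, while ATHB-15 and PHB, also left out by name, did not have it. No other gene of the HD-ZIPIII, LITTLE ZIPPER, HD-ZIPII, auxin or leaf polarity lists met the selection. Of 3 LITTLE ZIPPER genes tested, ZPR1 rose in all 3 lines (log2 changes 2.91, 3.42 and 3.70 in CNA-KnC3HDZ, CNA-SmHOX32 and CNA-PpHOX32), and ZPR4 rose in CNA-KnC3HDZ (3.65) and CNA-PpHOX32 (4.10). Of 5 HD-ZIPIII genes, ATHB-15 was called higher in all 3 lines. Of 10 HD-ZIPII genes, which act in shade and auxin responses, HB-2 was called lower in CNA-SmHOX32 and HAT2 in CNA-PpHOX32. Of 8 auxin synthesis and transport genes tested, LAX3 fell in CNA-SmHOX32, and LAX3, AUX1, PIN3 and PIN4 fell in CNA-PpHOX32. Of 9 polarity genes, AFO (FILAMENTOUS FLOWER) fell in CNA-SmHOX32. In fits of a line's own libraries, ATHB-15, HB-2, LAX3 and AFO were not called in CNA-SmHOX32, nor ATHB-15, HAT2, LAX3 and PIN4 in CNA-PpHOX32. With 1 library left out, ATHB-15 was called in 1 of 6 fits in CNA-KnC3HDZ and CNA-SmHOX32 and in 3 of 6 in CNA-PpHOX32. LAX3, AFO, HAT2 and PIN4 were each lost in some of these fits, while ZPR1, ZPR4, AUX1 and PIN3 passed in all.

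Markers of photosynthetic tissue moved with induction. The summed level of 9 mesophyll markers was 22900 to 28900 CPM in CNA-KnC3HDZ mock and 13300 to 20700 CPM in induced libraries. It was 29400 to 38800 against 9950 to 15100 CPM in CNA-SmHOX32, and 22600 to 36600 against 8140 to 10900 CPM in CNA-PpHOX32. Of the 9, 2, 8 and 9 were called lower. In CNA the sums were 32200 to 37400 CPM mock and 11100 to 18900 CPM induced, and in CNA-SDdelta 33500 to 38700 and 18900 to 23500 CPM. In whole seedlings, fewer cells of a type and less RNA per cell cannot be told apart, and the part of these markers in the members' changes was not tested. Of the other marker lists, 2 of 6 xylem genes (XCP1 and IRX1) and the meristem gene CLV1 fell in CNA-SmHOX32, 2 of 5 root genes (PYK10 and CASP1) fell in CNA-PpHOX32, and 0 of 3 phloem genes were called. Of 4 epidermis genes, KCS10 fell in CNA-KnC3HDZ and PDF1 rose in CNA-PpHOX32. The sums over root markers were 270 to 1050 CPM in all libraries, and the xylem regulator NAC101 was at 0 in all libraries of 8 groups.

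Calls of single members varied with the libraries used. LUP2, PRXIIF and ADF2 in CNA-SmHOX32, LUP2 and ADF2 in CNA-PpHOX32 and AGP24 in CNA-KnC3HDZ passed in every alternative fit and with any 1 library of the line left out. With 1 library left out, AT2G27310 in CNA-SmHOX32 was not called without induced replicate 1, mock replicate 2 or mock replicate 3 (highest adjusted p 0.216), and AT5G07080 was not without induced replicate 1 or mock replicate 3 (highest 0.104). In CNA-PpHOX32, LOH2 was not called without mock replicate 2 or mock replicate 3 (highest 0.0653), and PRXIIF was not without induced replicates 1 and 2 and mock replicates 2 and 3, each in turn (highest 0.279). AGP24 there was called only without induced replicate 1 (highest 0.272), and AT5G59845 only without induced replicate 2 or induced replicate 3 (highest 0.177). When only the 6 libraries of a line entered the fit, AT1G11175, AT2G27310, AT5G07080 and ENODL1 no longer passed in CNA-SmHOX32, nor PRXIIF, LOH2 and AGP24 in CNA-PpHOX32. TAG1 and AT5G59845 did not pass the filter on low counts in those fits. COR15A in CNA-KnC3HDZ was not called without induced replicate 2, without induced replicate 3 or without mock replicate 1 (highest adjusted p 0.135).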

How the data were processed

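The authors deposited raw counts per gene, 1 table for each of 48 QuantSeq 3' libraries of polyadenylated RNA. The submitters' processing notes name Trimmomatic, STAR, featureCounts, DESeq2 and TAIR10, while versions, strand setting and molecular identifiers are not given in the sources used here. Groups were taken from the labels. Members followed the rule in the report, and members and lists were chosen with earlier results of these data known. Counts were fitted in R 4.3.3 with edgeR 4.0.16 (filterByExpr, TMM, 1 mean per group over all 48 libraries, glmQLFTest), which left 18909 genes. Adjusted p-values (Benjamini-Hochberg over these genes, called under 0.05) are from this test. SE is the absolute log2 change over the square root of F. CPM are counts over the TMM-scaled total times 1000000, except in the rule, which used plain totals. Named were members called in the 3 lines outside the selection, the 10 with the widest gap, the 3 nearest each side of every limit, and listed genes that were called. DESeq2 1.42.0, other filters, own-line fits, a replicate block and leaving out libraries were tried. Same-numbered induced and mock libraries of a line did not deviate together, so the numbers were not taken to pair samples. Replicates differed beyond sampling noise in all 48 within-group pairs (chi-square per degree of freedom 10.07 to 55.57). On simulated counts for the CNA-KnC3HDZ induction, over 18909 genes, 66 of 100 genes changed by a log2 of 2 and 22 of 100 changed by 1 were recovered, with 5 unchanged genes called. For the difference CNA-PpHOX32 minus CNA-KnC3HDZ the same genes gave 39 of 100 and 4 of 100, with 1 unchanged gene called. Changed genes were drawn from those averaging over 5 CPM, with 1 dispersion trend for all lines, so recovery of lower members was not measured. Floors cover counting error only. Gene names, positions and sequences are from RefSeq TAIR10.1, which held 28009 of 28496 identifiers, all 50 members included.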

Additional observations from a re-analysis of the deposited data

Results flagged for a closer look

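The induction of 3 members differed between lines by a test of the difference itself (edgeR's quasi-likelihood interaction, adjusted over 18909 genes). LUP2 rose more in CNA-SmHOX32 than in CNA-KnC3HDZ, by 6.75 on the log2 scale (adjusted p = 0.000384), and more in CNA-PpHOX32 than in CNA-KnC3HDZ, by 4.04 (adjusted p = 0.0325). ENODL1 differed by −5.30 between CNA-SmHOX32 and CNA-KnC3HDZ (adjusted p = 0.00715). COR15A differed by 2.18 between CNA-PpHOX32 and CNA-KnC3HDZ (adjusted p = 0.0427). In the fits of the compared lines alone the first of these still passed (adjusted p = 0.0171), and the highest adjusted p of the others over their alternatives was 0.0691 for LUP2, 0.052 for ENODL1 and 0.076 for COR15A. With any 1 of the 12 libraries of a comparison left out, both CNA-SmHOX32 differences passed each time, while the CNA-PpHOX32 differences passed in 5 of 12 for LUP2 (highest adjusted p 0.129) and 4 of 12 for COR15A (highest 0.204).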

How the results depend on the processing

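No gene named as called changed sign under the alternatives run, while counts of members called, higher and lower together, moved. Shares of all genes called in these alternatives are not given here, so the counts are not read against other genes. With only the libraries of the compared lines, the inductions gave 6 in CNA-KnC3HDZ (2 in the main fit), 3 in CNA-SmHOX32 (8) and 2 in CNA-PpHOX32 (6). The differences gave 1 for CNA-SmHOX32 minus CNA-KnC3HDZ (2) and 0 for CNA-PpHOX32 minus CNA-KnC3HDZ (2), and mock CNA-PpHOX32 minus CNA-KnC3HDZ gave 1 (2). DESeq2 gave 2 for CNA-PpHOX32 minus CNA-SmHOX32 (0), 11 for mock CNA-SmHOX32 minus CNA-KnC3HDZ (7) and 6 for mock CNA-PpHOX32 minus CNA-KnC3HDZ (2), and no filter on low counts gave 1 for CNA-PpHOX32 minus CNA-SmHOX32. With the replicate number as a block (replicate block), the inductions gave 2, 7 and 4 in CNA-KnC3HDZ, CNA-SmHOX32 and CNA-PpHOX32, the differences 3, 2 and 0, and the mock comparisons 8 for CNA-SmHOX32 and 4 for CNA-PpHOX32. The block ended the calls of TAG1 in CNA-SmHOX32 (adjusted p = 0.0844) and of PRXIIF and AT5G59845 in CNA-PpHOX32. Same-numbered libraries correlated at −0.025 to 0.078. With 1 library left out, counts ran from 1 to 2 for CNA-KnC3HDZ, 6 to 10 for CNA-SmHOX32 and 2 to 5 for CNA-PpHOX32, where mock replicate 2 (3 calls) and mock replicate 3 (2 calls) moved the count most. They ran from 2 to 5, from 0 to 2 and from 0 to 3 for the differences CNA-SmHOX32 minus CNA-KnC3HDZ, CNA-PpHOX32 minus CNA-KnC3HDZ and CNA-PpHOX32 minus CNA-SmHOX32, and from 4 to 10 and from 0 to 4 for the mock comparisons of CNA-SmHOX32 and CNA-PpHOX32. The rule gave 52 genes with TMM-scaled totals (44 shared) and 60 with a pseudocount of 0.5 (47 shared). With 3 libraries a group and 1.5 CPM as the floor of the shallowest library, a member that did not pass was not shown to be unchanged. The cause of these shifts was not tested.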
